A study of Rattus norvegicus with 15 samples.

Results

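The comparison is between mucosal cells on either side of the pylorus of the rat, the 3 gastric samples against the 3 duodenal ones. They were chosen by sample title and make up 6 of the 15 samples of a series that also covers the jejunum, ileum and colon. Every group came from untreated male Sprague Dawley rats. Segments of gut were turned inside out, mucosal cells were loosened by brief pronase treatment and separated by elutriation, and amplified RNA was labelled with Cy3 or Cy5 and hybridised to Agilent whole-genome rat arrays. Each group holds 3 cell isolations; separate animals are not stated, so the p-values below measure the spread between isolations. Neither the part of the stomach sampled (corpus or antrum) nor the ages are given in the labels.

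The pylorus is the muscular gate between the gastric and the intestinal epithelium. On its gastric side, surface and neck cells secrete mucus, chief cells secrete pepsinogen and parietal cells secrete acid. On its duodenal side, a crypt and villus epithelium absorbs nutrients, iron and calcium, secretes bicarbonate against the arriving acid and releases hormones in response to food. As textbook background, the homeobox factor Cdx2 sets the intestinal fate, Sox2 the foregut fate, and Pdx1 is made around the junction itself.

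Stomach samples correlated with each other across genes at 0.980 to 0.988, duodenal samples at 0.928 to 0.964, and samples of different segments at 0.837 to 0.890 (genes are not independent replicates). Between 95.4% and 97.1% of probes were well above background in the stomach samples and between 64.7% and 92.5% in the duodenal ones. The scanner software differed, however: version 8.5.1.1 with a background multiplier of 2.6 was used for the stomach and 9.5.1.1 with a multiplier of 13 for the duodenum. All stomach arrays, and no other, were scanned on one day, so a scan effect and a segment effect cannot be told apart. Levels are given as log2 processed intensity minus the 75th percentile of the same sample, so that 0 is the 75th percentile itself; levels of different genes come from different probes and are not compared.

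Of 33530 genes tested with limma (Benjamini-Hochberg adjusted p under 0.05), 7600 (22.7%) differed between the segments. The stomach was higher for 4160 (12.4%) and lower for 3440 (10.3%). All 3 stomach samples lay above all 3 duodenal samples for 31.7% of genes, and below them for 17.9%. Among the 15254 genes with an established symbol, the stomach was higher for 1678 and lower for 2403, and large differences were common: 89 were at least 16-fold higher and 137 at least 16-fold lower. The balance of the calls depended on brightness. With the genes in 3 equal classes of brightness, 1397 were higher and 199 lower in the dimmest class, and 1413 higher and 2346 lower in the brightest. The median difference over all genes was 0.32 (log2), and -0.12 after normexp background correction, an alternative that models background per array (0.11 after quantile normalization and 0.43 after median scaling), so the gene list medians below are to be read against 0.32. Without stomach replicate 3, the higher calls fell to 2134; without duodenum replicate 1, 2057 were higher and 2007 lower; and with scan day as the block in place of the slide, 2047 were higher and 2107 lower.

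**Figure D1:**
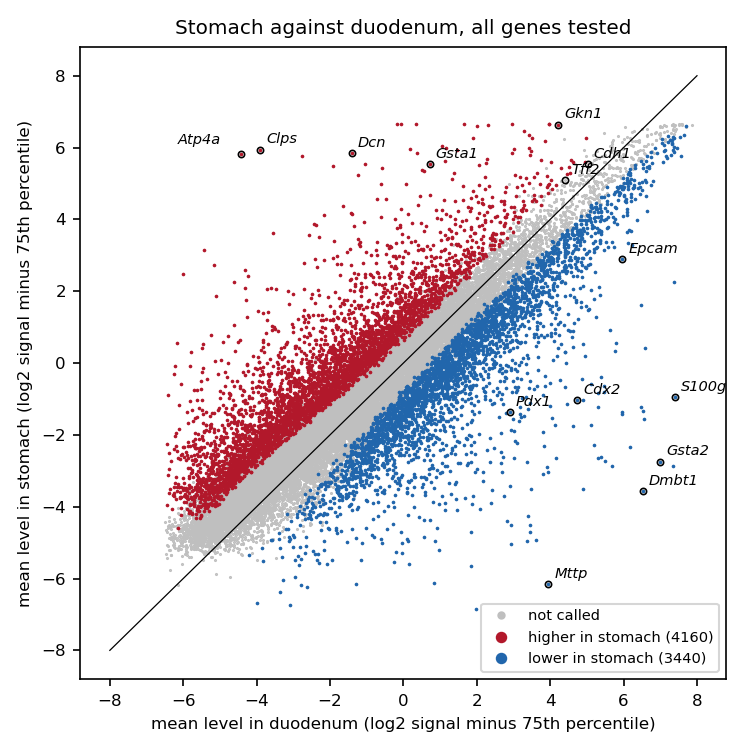
Mean level of each tested gene in the duodenum (x axis) and in the stomach (y axis), both as log2 processed intensity minus the sample's 75th percentile; each point is a gene, the line marks equal levels, and colours mark the 4160 genes called higher and the 3440 called lower in the stomach. Atp4a and Clps lie far above the line and Dmbt1, Gsta2 and Mttp far below it, while Tff2 and Cdh1 lie close to it.

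Folds under normexp are added in brackets wherever they differ from the main value by more than 1.5 times. Among the 305 called genes that are named or listed, 109 had folds smaller by that margin under normexp and 1 a larger one. The brightest probe stands for a gene, and the fold over all its probes, or with quantile normalization, is added by the same margin. "At least" marks a bound: the gene was either not well above background in any sample of its lower side, or saturated in all 3 stomach samples. A bound is a difference of group means without the dye term, whereas p-values and folds in brackets come from the fit. For the genes saturated in the stomach, the fitted differences were slightly smaller than the bounds. They were 2.32 for Gkn1, 2.52 for Gkn2, 3.62 for Tff1, 4.86 for Pgc, 6.20 for Atp4b and 6.66 for Pla2g1b (log2). Of the genes with measured folds below, 1 of 3 duodenal samples measured Atp4a, Cblif, Clps, Col6a1 and Sox2. For Barx1, Gp2, Isl1, Kcne2, Kcnj16, Nkx6-2 and Sctr, 2 of 3 duodenal samples did. For Abcg2, Aoc1, Cdx1, Si, Slc15a1 and Tac1, 2 of 3 stomach samples did. Cblif, Clps, Col6a1, Kcnj16 and Sox2, and the probe that stood for Nkx6-2, passed the filter on dim probes only through the stomach samples. So did Arhgap22, Cyp19a1, Kcnq3, Lpar3, Ptger3, Slc26a7 and Thbd, given as bounds. Their calls thus follow a filter on the side where they were higher.

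The 6 marker genes separated the segments as their labels say. Atp4a, which encodes the alpha chain of the acid pump, stood at 6.04, 5.56 and 5.82 in stomach samples 1 to 3 and at -4.25, -5.14 and -3.92 in duodenal samples 1 to 3, of which only duodenum 3 was well above background. No sample of either segment came near the other, and the fitted difference was 10.31 ± 0.40 (log2, SE, n = 3 per group, adjusted p = 2.46e-11), or 1266-fold (309-fold with normexp, 184-fold over all its probes). Muc5ac, the gel-forming mucin of the gastric surface, was 6.17, 5.92 and 5.81 against 0.23, 0.35 and -0.02, a 54.2-fold difference (adjusted p = 4.95e-10). Gkn1, a secreted gastrokine of the same surface cells, was saturated in all 3 stomach samples, and its duodenal levels of 4.17, 4.64 and 3.81 were themselves high. That left a bound of at least 5.42-fold between the group means (fitted difference 2.32, log2, adjusted p = 8.27e-05).

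The 3 duodenal markers were lower in every stomach sample. Cdx2 read -1.03, -1.14 and -0.90 in the stomach and 5.0, 4.32 and 4.88 in the duodenum, a 53.8-fold difference (-5.75 ± 0.25, adjusted p = 6.13e-11). Pdx1 read -1.55, -1.10 and -1.46 and 2.88, 3.12 and 2.69, 19.3-fold lower in the stomach (adjusted p = 1.21e-08). Slc40a1, the iron exporter ferroportin, read -4.05, -4.32 and -4.32 and 0.14, 0.63 and -0.38, 21.4-fold (9.04-fold with normexp) lower (adjusted p = 1.38e-07). Saturation in stomach 3 alone, where the ceiling was lowest, held Atp4a and Muc5ac at the limit of the scanner in that sample, and likewise Clps, Pdia2, Dcn, Ctse, Chia, Chga and Ghrl below.

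**Figure D2:**
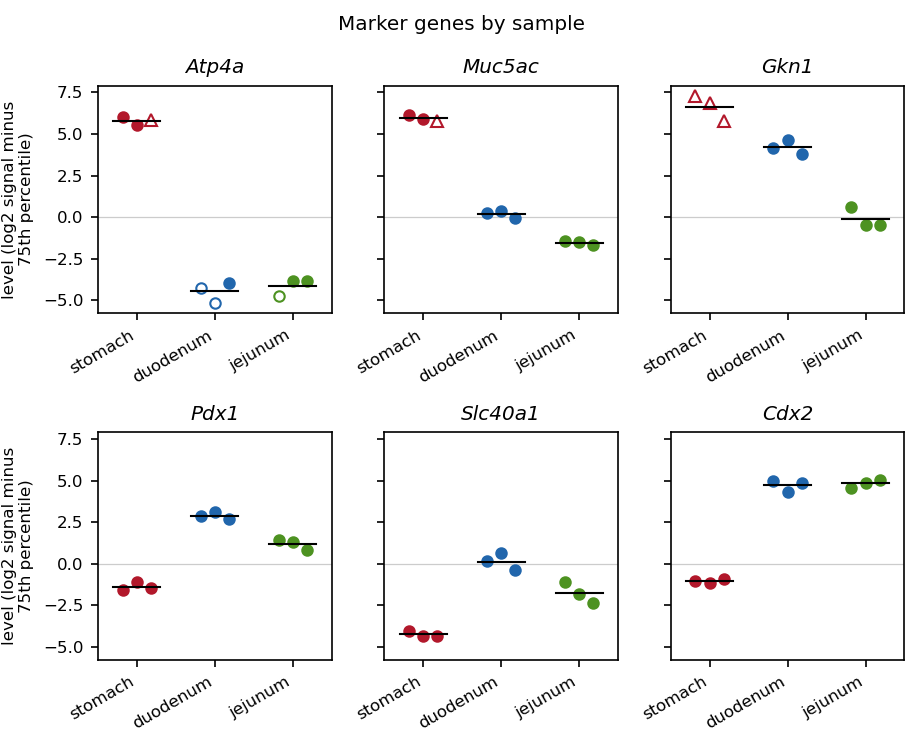
Levels of the 6 marker genes (log2 processed intensity minus the sample's 75th percentile) in each sample of the stomach, duodenum and jejunum; filled points were well above background, open circles were not, open triangles were saturated and bars are means. The stomach markers Atp4a, Muc5ac and Gkn1 are highest in the stomach, and Gkn1 is also well above the jejunum in all 3 duodenal samples; Pdx1 and Slc40a1 are highest in the duodenum, and the duodenal and jejunal samples overlap for Cdx2.

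As the cells are a bulk suspension, fewer cells of a type and less RNA per cell cannot be told apart for any gene below. Markers of other cells also differed between the segments. Among 16 genes of fibroblasts and matrix, 9 were higher on the gastric side and 0 lower (median 2.81), against 12.4% and 10.3% of all genes; the mean level over the list was 0.40, 0.33 and 0.37 in stomach 1 to 3 and -2.03, -2.56 and -1.75 in duodenum 1 to 3. Dcn, the matrix proteoglycan decorin, was 155-fold (238-fold with quantile normalization) higher, with levels of 6.09, 5.66 and 5.82 against -1.28, -1.68 and -1.27. The collagen chain Col6a1 was 28.3-fold (5.22-fold with normexp) higher and the proteoglycan Bgn 21.1-fold (11.4-fold with normexp), whereas Col1a1 (0.46 ± 0.32) and Vim (0.58 ± 0.35) were not called. The Col1a1 difference depended on the setting and ran from 0.16 to 3.06 (log2) over the alternatives. Where all 6 samples had to be well above background, 4 were called higher.

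Endothelial genes went the same way, with 8 of 12 higher and 0 lower (median 1.73), but 4 without duodenum replicate 1, and 5 without each stomach sample in turn or with scan day as the block. The number was also 5 where all 6 samples had to be well above background. Among the 8, Plvap and Emcn passed the filter on dim probes only through the stomach samples. The angiopoietin receptor Tek was 5.07-fold (3.32-fold with normexp) higher and the VEGF receptor Kdr 4.81-fold, while Pecam1 was not called (0.54 ± 0.42, adjusted p = 0.376). Clec14a and Thbd, both known from vessels, had bounds of at least 28.9-fold (8.52-fold with normexp, 12.1-fold over all its probes) and at least 18.8-fold (6.37-fold with normexp), since no duodenal sample was well above background. The beta-globin gene Hbb-b1 was 74.4-fold (41.3-fold with normexp) higher, whereas the erythroid genes Alas2 (0.02 ± 0.24) and Slc4a1 (0.35 ± 0.40) were not called. Smaller lists gave few calls: 2 of 9 smooth muscle genes were higher and 1 lower, 3 of 10 neuronal and glial genes were higher (6 without duodenum 3), 1 of 6 B cell and 1 of 7 mast cell genes were higher, and 1 of 8 MHC class II genes was lower. The B cell and mast cell calls were lost without any one sample other than duodenum 3 and with scan day as the block, and the smooth muscle call of the lower gene, Actg2, without any one of the 6 samples and with scan day as the block. Of 8 squamous forestomach genes, limma called 0 either way and 1 had an unadjusted p under 0.05.

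Of 13 T cell genes 2 were lower in the stomach, 0 higher and 11 not called, against 10.3% lower and 12.4% higher of all genes. The count is thus not far from the share of all genes. Cd3g, a chain of the T cell receptor complex, was 10.9-fold lower and the granzyme Gzma 16.4-fold lower. Cd3e (0.31 ± 0.45) and Cd8a (-0.38 ± 0.36) were not called. Immediate early and stress genes, which rise when tissue is taken apart, were lower in the stomach for 19 of 23 and higher for 0 (median -2.49). The mean over that list was 0.01, 0.10 and 0.19 in stomach 1 to 3 against 2.73, 2.65 and 2.38 in duodenum 1 to 3. Fos, the best known of them, was 61.6-fold lower, the heat shock gene Hspa1a 79.3-fold and the phosphatase Dusp1 27.6-fold. The 4 not called were Fosb (0.68), Ier3 (0.45) and the heat shock genes Hspa1b (0.61) and Hspb1 (0.48, log2). Matrix and vessel genes thus moved with the genes higher in the stomach, and stress genes with those lower in it; their part in the results below was not tested. The general epithelial gene Cdh1, E-cadherin, was not called (5.63, 5.35 and 5.62 against 5.14, 5.38 and 4.53; 0.49 ± 0.37, adjusted p = 0.367), whereas Epcam, another epithelial adhesion gene, was 8.10-fold lower in the stomach.

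**Figure D3:**
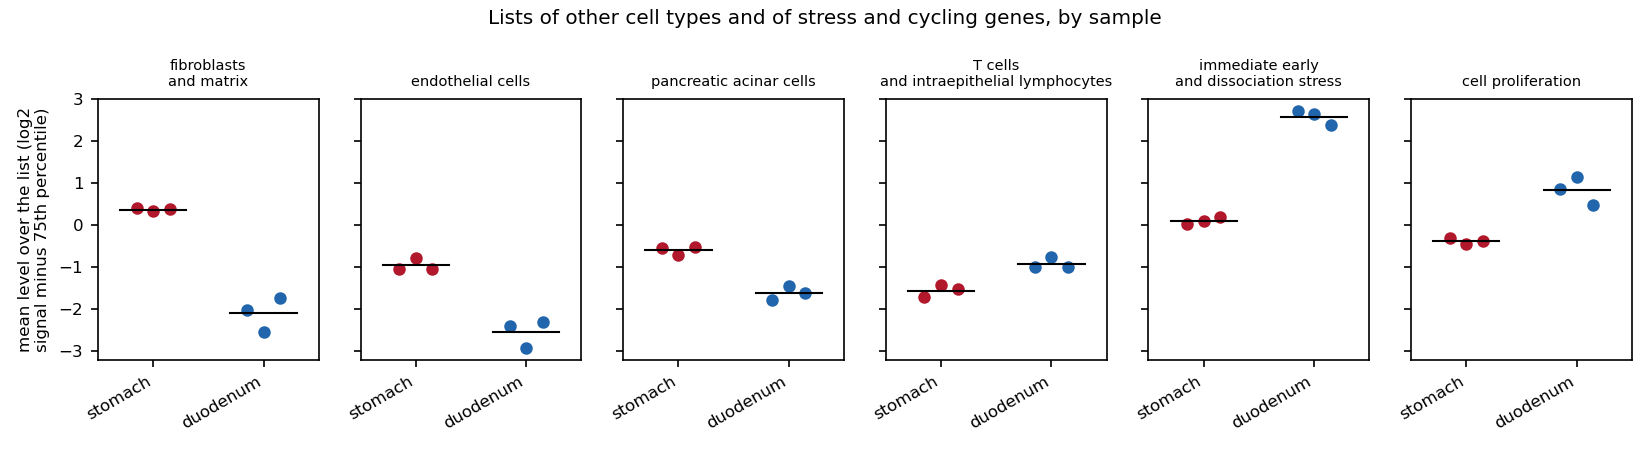
Mean level over each gene list (log2 processed intensity minus the sample's 75th percentile) in every stomach and duodenal sample, with bars at the group means, for fibroblast, endothelial, pancreatic acinar and T cell genes and for immediate early and proliferation genes. Fibroblast and endothelial means are higher in all 3 stomach samples, and immediate early means are higher in all 3 duodenal samples.

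Gastric surface and neck mucous genes were higher in the stomach for 11 of 13 and lower for 0, with a median difference of 2.52; fibroblast genes, as given above, were higher in the same samples. The cathepsin Ctse was 28.5-fold higher, the membrane mucin Muc1 26.7-fold (14.3-fold with normexp), the junction protein Vsig1 8.78-fold (5.70-fold with normexp) and the calpain Capn8 4.77-fold. Anxa10, an annexin of gastric epithelium, read 5.55, 5.23 and 5.55 against -0.48, -0.39 and -0.85, a 64.6-fold difference. Muc6, the mucin of neck and pyloric glands, differed less (2.71-fold, adjusted p = 0.028) and was not called without stomach 1, stomach 3, duodenum 1 or duodenum 2 (adjusted p from 0.0723 to 0.168), or with scan day as the block (0.15).

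Several of these genes were far from silent in the duodenum. Setting the duodenum against the jejunum, the next segment, called 84 genes higher (0.251%) and 91 lower (0.271%) of 33530, but 6 of the 13 mucous genes higher and 0 lower. This second comparison uses the same duodenal samples as the first, so the values are given side by side. Trefoil peptide Tff2, which stabilises mucus, read 5.13, 4.82 and 5.33 in the stomach, 4.56, 4.47 and 4.21 in the duodenum and 0.69, -0.08 and -0.09 in the jejunum. The stomach and duodenum did not overlap, yet differed by only 0.63 ± 0.35 (adjusted p = 0.215, not called), while the duodenum exceeded the jejunum by 4.29 ± 0.29 (adjusted p = 6.51e-07).

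Gkn1 stood at 0.59, -0.48 and -0.45 in jejunum 1 to 3, 4.44 below the duodenum on average (log2). Its neighbour Gkn2 had duodenal levels of 4.10, 4.01 and 3.78, at least 6.42-fold below the saturated stomach and 4.06 above the jejunum. Trefoil peptide Tff1, at 2.75, 3.73 and 2.41 in the duodenum, had a bound of at least 12.8-fold against the stomach and was 2.91 above the jejunum. Muc1 and Ctse, also of the mucous list, overlapped between duodenum and jejunum, with -2.56, -2.58 and -2.97 against -2.0, -2.98 and -2.85 for Muc1 and 0.98, 1.59 and 0.92 against 1.23, 0.52 and 0.52 for Ctse, so the second step held for some of the genes. For Anxa10 and Muc5ac, with the larger folds across the pylorus given above, duodenal levels exceeded the jejunal ones by 2.68 and 1.74.

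Outside the mucous list, Gsta1 and Adh7 had the same order of stomach, duodenum and jejunum. Gsta1, a glutathione transferase, read 5.61, 5.23 and 5.75 in the stomach, 0.73, 0.89 and 0.52 in the duodenum and -2.23, -2.39 and -2.69 in the jejunum, 27.8-fold higher in the stomach and then 3.17 (log2) above the jejunum. Adh7, the gastric retinol and alcohol dehydrogenase, was 4.83-fold higher in the stomach and 3.33 higher in duodenum than jejunum. The sulphotransferase Sult1c2 (0.38 ± 0.24, adjusted p = 0.276) and the homeobox factor Meis2 (-1.02 ± 0.50, adjusted p = 0.155) were not called between stomach and duodenum, but the duodenum was above the jejunum by 2.68 and 3.57.

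**Figure D4:**
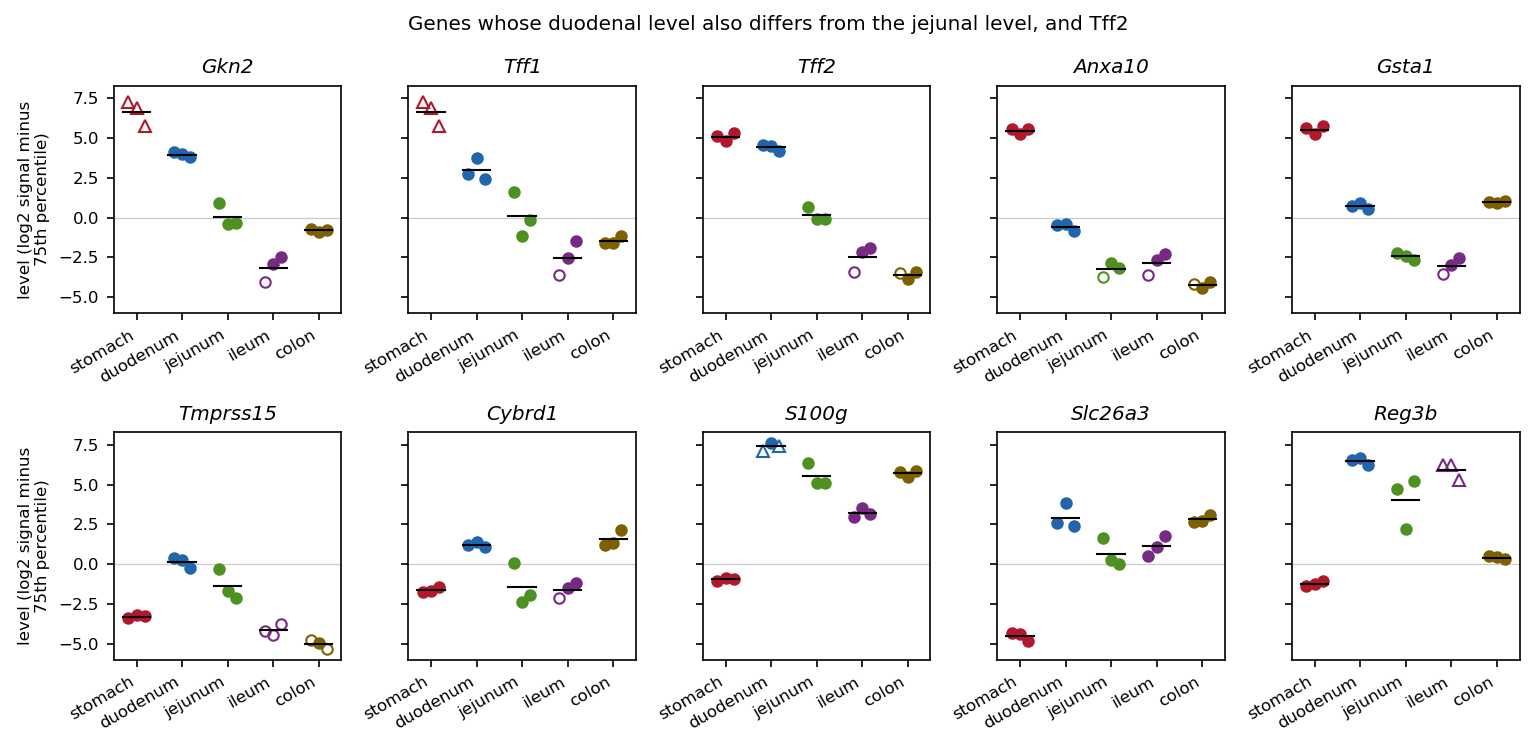
Levels (log2 processed intensity minus the sample's 75th percentile) of 10 genes in all 15 samples, by segment, for genes that also differ between duodenum and jejunum; filled points were well above background, open circles were not, open triangles were saturated and bars are means. Gkn2, Tff1, Anxa10 and Gsta1 step down from stomach to duodenum to jejunum and Tff2 from duodenum to jejunum, whereas Tmprss15, Cybrd1, S100g, Slc26a3 and Reg3b are higher in the duodenum than in the stomach or jejunum.

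Chief and parietal genes had no such second step. Of 8 chief cell genes 6 were higher and 0 lower (median 5.05), and none was called between duodenum and jejunum. Pga5, a pepsinogen, read 4.12, 3.69 and 3.83 against -2.67, -1.96 and -2.66, a 79.2-fold (52.5-fold with normexp) difference (6.31 ± 0.33, adjusted p = 5.91e-10). Pgc, progastricsin, was saturated in the stomach and at 1.67, 1.43 and 1.86 in the duodenum (at least 31.8-fold), and the milk-clotting protease Cym differed 49.5-fold. The differences between duodenum and jejunum were -0.02 for Pga5, -0.49 for Pgc and -0.19 for Cym (log2), none of them called.

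The chitinase Chia was 31.5-fold (48.6-fold with quantile normalization) higher and the secretory cell factor Bhlha15 34.8-fold (19.96-fold with normexp). Cblif, the intrinsic factor that binds vitamin B12, read 1.5, 1.0 and 1.37 against -2.47, -4.80 and -5.49, with only duodenum 1 well above background, so its 45.8-fold (11.5-fold with normexp) difference became 116-fold without that sample. Lipf, gastric lipase, was not called and lay slightly lower in the stomach (0.44, 0.66 and 0.53 against 1.16, 0.96 and 0.77; -0.51 ± 0.24, adjusted p = 0.15).

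Genes of parietal cells and acid secretion had 10 of 20 higher in the stomach and 1 lower (median 1.21). The beta subunit of the proton pump, Atp4b, was saturated in the stomach and at least 78.7-fold above duodenal levels of 0.18, -0.12 and 0.97. The potassium channel subunit Kcnj16 was 81.2-fold (20.5-fold with normexp) higher, the channel subunit Kcne2 10.5-fold (3.53-fold with normexp), the chloride channel protein Clic6 13.7-fold (6.80-fold with normexp) and the anion exchanger Slc26a7 at least 9.73-fold (3.0-fold with normexp), as no duodenal sample was well above background. The carbonic anhydrase Car2 was 9.98-fold higher and the basolateral exchanger Slc4a2 3.05-fold. The creatine kinase Ckmt1 was the 1 member lower, 3.91-fold.

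Receptors through which acid secretion is stimulated were not called: the gastrin receptor Cckbr (0.83 ± 0.29, adjusted p = 0.0513), the histamine receptor Hrh2 (1.42 ± 0.54, adjusted p = 0.0699) and the muscarinic receptor Chrm3 (0.71 ± 0.32, adjusted p = 0.13). The number of parietal genes called higher was 6 where all 6 samples had to be well above background. The estrogen-synthesising enzyme Cyp19a1, which parietal cells of the rat are known to make, had a bound of at least 16.4-fold (4.61-fold with normexp).

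Different hormone genes led on either side of the boundary. Of 9 gastric endocrine genes 5 were higher in the stomach and 0 lower (median 2.16). Hdc, the histamine-forming enzyme of enterochromaffin-like cells, read 3.50, 3.80 and 4.02 against -0.35, -0.63 and 0.68, 14.7-fold higher. Somatostatin, Sst, was 7.75-fold higher, chromogranin Chga 4.61-fold (7.0-fold with quantile normalization, 2.77-fold over all its probes) and the amine transporter Slc18a2 4.47-fold (18.5-fold over all its probes). Ghrelin, Ghrl, was 5.16-fold (7.86-fold with quantile normalization) higher (adjusted p = 0.013), a call lost without stomach 3 (0.0564) or duodenum 1 (0.0918) and with scan day as the block (0.0728). Gastrin, Gast, was not called, with 2.70, 2.74 and 2.74 against 2.53, 2.10 and 2.47 (0.25 ± 0.38, adjusted p = 0.671).

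Among 16 intestinal endocrine genes, 6 were lower in the stomach and 3 higher. Secretin, Sct, which drives pancreatic bicarbonate, read -1.31, -1.0 and -1.10 against 4.65, 4.72 and 4.01, 54.1-fold lower in the stomach (adjusted p = 1.06e-07). The substance P precursor Tac1 was 31.7-fold (7.56-fold with normexp) lower, the incretin Gip 22.6-fold and cholecystokinin, Cck, 17.1-fold (11.4-fold with normexp). For Gip and Cck the duodenum itself lay below the jejunum, with differences of -2.03 and -1.60 (log2). Glucagon, Gcg, was 8.41-fold (4.06-fold with normexp) lower in the stomach and 13.4-fold without stomach 1. The endocrine transcription factors Isl1 (5.20-fold, 2.57-fold with normexp) and Nkx2-2 (3.66-fold) were higher in the stomach, against the direction of the intestinal hormones.

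Absorptive genes were lower in the stomach, as were immediate early genes in the same samples. Of 20 brush border enzymes 12 were lower and 0 higher (median -2.11), and of 15 microvillus genes 8 were lower and 1, the actin nucleator Cobl, higher (median -1.90). Si, sucrase-isomaltase, read -5.40, -4.47 and -4.91 against 3.55, 4.14 and 3.12, 398-fold (99.8-fold with normexp) lower (-8.64 ± 0.61, adjusted p = 2.1e-08). The diamine oxidase Aoc1 was 283-fold (61.7-fold with normexp) lower, the meprin subunit Mep1b 98.2-fold (27.9-fold with normexp) and intestinal alkaline phosphatase, Alpi, 50.9-fold. Enteropeptidase, Tmprss15, which activates trypsinogen, was 12.2-fold (7.59-fold with normexp) lower in the stomach and 1.69 above the jejunum. Not every hydrolase followed: aminopeptidase N, Anpep (0.22 ± 0.30), lactase, Lct (-1.26 ± 0.77), and trehalase, Treh (-0.80 ± 0.32), were not called.

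Structural genes of the microvillus showed the same step. Cdhr5, a cadherin that links microvilli, was 248-fold (128-fold with normexp) lower in the stomach, the keratin Krt20 174-fold, villin, Vil1, 125-fold (55.2-fold with normexp) and the myosin Myo1a 43.5-fold (19.6-fold with normexp). Villin read -2.99, -2.82 and -3.50 in the stomach and 4.12, 3.86 and 3.43 in the duodenum. Espn (0.22 ± 0.42) and Eps8 (-0.10 ± 0.58), 2 further actin-binding members, were not called.

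In lipid absorption, 17 of 20 genes were lower in the stomach and 0 higher (median -3.60). Mttp, the lipid transfer protein needed to build chylomicrons, was not well above background in any stomach sample (-5.56, -5.89 and -7.04) and stood at 3.90, 4.22 and 3.70 in the duodenum, a bound of at least 852-fold (159.5-fold with normexp, 107-fold over all its probes); the probe used where all 6 samples had to be measured gave 9.21-fold (adjusted p = 6.55e-10). Npc1l1, the cholesterol importer, was 261-fold (86.1-fold with normexp) lower, the fatty acid binding protein Fabp1 232-fold and the apolipoprotein Apoa1 118-fold. Fabp1 read -1.08, -1.77 and -1.17 against 6.43, 6.72 and 6.43. Fabp2, by contrast, was 11.8-fold lower in the stomach and already lower in the duodenum than in the jejunum (-3.09, log2). Cd36 (0.50 ± 0.27), Sar1b (-0.70 ± 0.31) and Abcg8 (0.90 ± 0.53) were not called, and for Dgat2 (6.75-fold, 2.30-fold over all its probes, lower) the sign turned to 0.23 (log2) under normexp.

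The promoters of Si and Fabp1 are shown because these genes give the absorptive step and both hold the letters TTTAT, the core of the sites bound by CDX factors, while those of Gkn1 and Gkn2 are shown as gastric genes that hold AGATAA, a core bound by GATA factors. Each run is the 250 bases before the start of the gene, 5′ to 3′ on the strand of the gene, from the RefSeq table (build GRCr8); capitals mark either motif on either strand (ATAAA is the reverse complement of TTTAT, and can also lie within a TATA box, TATAAA). Si lies at chr2:159884903-159885152, minus strand (4 matches), Fabp1 at chr4:104749090-104749339, plus strand (3 matches), Gkn1 at chr4:121352706-121352955, minus strand (1 match) and Gkn2 at chr4:121375344-121375593, plus strand (2 matches, 1 of each motif).
Si: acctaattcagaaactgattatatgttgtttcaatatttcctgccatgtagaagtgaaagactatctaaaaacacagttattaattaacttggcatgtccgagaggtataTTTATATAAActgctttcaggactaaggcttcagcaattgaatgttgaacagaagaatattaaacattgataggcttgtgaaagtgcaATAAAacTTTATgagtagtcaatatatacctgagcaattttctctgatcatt
Fabp1: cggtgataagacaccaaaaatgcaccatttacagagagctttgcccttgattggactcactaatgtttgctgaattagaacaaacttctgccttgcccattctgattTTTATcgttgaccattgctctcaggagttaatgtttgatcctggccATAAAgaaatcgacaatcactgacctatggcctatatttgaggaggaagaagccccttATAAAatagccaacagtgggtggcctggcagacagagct
Gkn1: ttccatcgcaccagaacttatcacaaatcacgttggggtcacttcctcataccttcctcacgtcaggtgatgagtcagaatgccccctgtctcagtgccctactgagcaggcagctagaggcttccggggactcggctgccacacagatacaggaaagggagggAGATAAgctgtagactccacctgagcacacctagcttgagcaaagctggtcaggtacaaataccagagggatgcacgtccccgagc
Gkn2: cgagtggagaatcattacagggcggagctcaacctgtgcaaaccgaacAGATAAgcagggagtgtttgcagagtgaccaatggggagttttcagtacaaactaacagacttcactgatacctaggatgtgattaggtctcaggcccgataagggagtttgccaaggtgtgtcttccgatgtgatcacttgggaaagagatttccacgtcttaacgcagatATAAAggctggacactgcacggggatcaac
TTTAT was in 10682 of 27457 promoters of that length (38.9%), in 16 of 39 absorptive genes lower in the stomach (41.0%) and in 12 of 21 gastric genes higher in it (57.1%). AGATAA was in 2759 of all promoters (10.05%), in 4 of the 39 (10.3%) and in 2 of the 21 (9.52%). Promoters were found for 39 of 47 and 21 of 27 genes. The shares among absorptive genes were close to those of all promoters. For TTTAT the share among the 21 gastric genes was above that of all promoters, a difference that was not tested. A match describes letters and not binding.

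Of 12 sugar genes 10 were lower in the stomach and 1 higher (median -3.24); the 1 higher was the widely expressed transporter Slc2a1 (2.08-fold, adjusted p = 0.0256), which was not called without stomach 1 or 3 or duodenum 1 or 3, or with scan day as the block. The fructose transporter Slc2a5 was not well above background in the stomach (-6.73, -7.0 and -6.82) and stood at 1.99, 2.39 and 1.56 in the duodenum, a bound of at least 224-fold (41.96-fold with normexp). The fructose-handling enzymes Tkfc (24.4-fold) and Khk (20.4-fold) and the gluconeogenic enzymes Fbp1 (20.8-fold, 8.52-fold over all its probes) and Pck1 (17.97-fold, 8.99-fold with normexp, 7.96-fold over all its probes) were lower in the stomach. The glucose transporter Slc5a1, SGLT1, differed less (2.66-fold), and the basolateral Slc2a2 was not called (-0.78 ± 0.40, adjusted p = 0.178). The Slc2a2 result depended on the setting: its difference ran from -4.02 to -0.48 (log2) over the alternatives. Under normexp, and under quantile normalization, 11 of the 12 sugar genes were lower.

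Amino acid and peptide transporters split: 7 of 15 were lower in the stomach and 0 higher (median -0.85). The peptide transporter Slc15a1 was 251-fold (63.6-fold with normexp) lower, and both chains of the cystine transporter, Slc7a9 (71.2-fold) and Slc3a1 (42.9-fold, 17.9-fold with normexp), were lower. Widely expressed carriers were not called, among them Slc7a5 (-0.04 ± 0.33), Slc38a2 (0.05 ± 0.27) and Slc36a1 (-0.07 ± 0.37). Of 10 vitamin uptake genes 4 were lower, led by the retinol binding protein Rbp2 (127-fold, 54.5-fold with normexp) and the ascorbate transporter Slc23a1 (7.46-fold); the number was 2 without any one sample other than duodenum 3, and with scan day as the block.

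Iron genes were lower in the stomach for 7 of 15 and higher for 1 (median -1.13). Those that carry iron across the enterocyte led. Besides Slc40a1, the ferroxidase Heph, which works with the exporter, read -3.07, -3.11 and -2.97 against 2.19, 2.40 and 1.88, 38.9-fold (19.9-fold with normexp) lower. Cybrd1, the brush border ferric reductase, read -1.73, -1.69 and -1.44, 1.18, 1.39 and 1.05 and, in the jejunum, 0.07, -2.36 and -1.96. Its duodenal level was 7.12-fold above the stomach and 2.63 (log2) above the jejunum, and that of Slc40a1 was 1.94 above the jejunum. The importer Slc11a2 differed by 2.18-fold (adjusted p = 0.00746; 0.063 without stomach 3) and was not called between duodenum and jejunum (0.13, log2).

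Haem oxygenase Hmox1 was 6.39-fold lower and the aconitase Aco1, an iron sensor, 2.91-fold lower in the stomach. Hamp, hepcidin, the hormone that removes ferroportin from the membrane, was the 1 member higher: 2.17, 1.94 and 2.14 against -0.69, -0.27 and -0.60, 5.93-fold (adjusted p = 0.000287). Ferritin heavy chain Fth1 was 2.60-fold (1.36-fold with quantile normalization) lower (adjusted p = 0.00252), a call lost under normexp, quantile normalization and without duodenum 1. The remaining 7 were not called: the ferritin light chain Ftl1 (-0.51 ± 0.33), the transferrin receptor Tfrc (-0.09 ± 0.22), the iron regulatory protein Ireb2 (-0.14 ± 0.30), the metal carrier Slc39a14 (-1.13 ± 0.46), ceruloplasmin Cp (0.02 ± 0.34), the reductase Steap3 (0.06 ± 0.40) and the hepcidin regulator Hfe (-0.19 ± 0.36).

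S100g, a calcium uptake gene that encodes the calcium-binding protein calbindin-D9k, read -1.07, -0.87 and -0.92 in the stomach and 7.13, 7.62 and 7.42 in the duodenum, where 2 of the 3 values (duodenum 1 and 3) were at the saturation limit. As measured, it was 332-fold lower in the stomach (-8.38 ± 0.31, adjusted p = 1.39e-11) and 1.91 higher in duodenum than jejunum. The apical channel Trpv6 (3.85-fold), the pump Atp2b1 (4.06-fold) and the claudin Cldn15 (13.2-fold, 8.68-fold with normexp) were also lower, making 5 of 11 with the vitamin D receptor Vdr (3.39-fold, not called without duodenum 1). Calb1 (0.22 ± 0.37) and Trpv5 (0.44 ± 0.29), the renal counterparts, were not called.

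Bicarbonate and acid defence genes moved both ways, 5 of 23 higher and 7 lower in the stomach (median 0.01). Slc26a3, which exchanges chloride for bicarbonate at the brush border, read -4.34, -4.39 and -4.82 against 2.56, 3.81 and 2.40, 179-fold (44.5-fold with normexp) lower, and its duodenal level was 2.33 above the jejunum. The basolateral sodium-bicarbonate importers Slc4a7 (4.55-fold) and Slc4a4 (2.57-fold) were lower in the stomach. So were the guanylate cyclase Gucy2c (46.8-fold, 13.8-fold with normexp) and its ligands guanylin, Guca2a (56.5-fold), and uroguanylin, Guca2b (12.8-fold), which stimulate bicarbonate and chloride secretion.

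Receptors divided. The prostaglandin receptor Ptger4 was 5.96-fold (3.91-fold with normexp) lower in the stomach, while the secretin receptor Sctr (5.20-fold, 2.33-fold with normexp) and the adenosine receptor Adora2b (3.09-fold) were higher. Ptger3, another prostaglandin receptor, was at least 5.07-fold (1.95-fold with normexp) higher, a call lost under normexp (adjusted p = 0.0991). The anhydrase Car9 (1.72-fold) was higher by a small margin and was called neither without any one sample other than duodenum 3 nor with scan day as the block.

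The other 11 were not called. They were the chloride channel Cftr (0.64 ± 0.34), the transporters Slc4a3 (0.74 ± 0.38), Slc4a5 (0.39 ± 0.43), Slc9a2 (1.15 ± 0.45) and Slc9a3 (-0.09 ± 0.29), the anhydrases Car1 (0.01 ± 0.47), Car4 (-0.29 ± 0.43) and Car12 (0.40 ± 0.56), the receptor Vipr1 (-0.67 ± 0.30) and the acid sensors Asic1 (-0.16 ± 0.22) and Trpv1 (0.29 ± 0.38).

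Of 25 regional and lineage transcription factors, 5 were higher in the stomach and 6 lower (median -0.12). On the gastric side, Sox2 read -0.84, -1.36 and -1.29 against -4.19, -4.48 and -5.10, with 1 duodenal sample well above background, and was 9.98-fold (2.44-fold with normexp) higher (adjusted p = 3.46e-05). Foxa2, a forkhead factor of foregut epithelium, was 4.88-fold higher (4.55, 4.38 and 4.44 against 2.23, 2.21 and 1.99), and Foxa3 3.13-fold. Nkx6-2 was 7.30-fold (3.01-fold with normexp, 3.13-fold over all its probes) higher, a call lost when the stomach flags were left out of the filter. Another probe then stood for Nkx6-2, at 0.43 (log2, adjusted p = 0.484). Barx1, a factor of gastric mesenchyme, was 2.38-fold (1.46-fold with normexp) higher (adjusted p = 0.0302), but was not called without any one sample other than duodenum 3, under normexp or with scan day as the block. The filter mattered here: 2 factors were called higher where all 6 samples had to be well above background.

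On the duodenal side, Cdx2 and Pdx1 were joined by Cdx1 (8.52-fold, 2.87-fold with normexp), the secretory lineage factor Gfi1 (4.61-fold, 3.02-fold with normexp), Hnf4g (4.08-fold) and the crypt factor Klf5 (2.96-fold, 1.94-fold with normexp). Pdx1 was 1.71 ± 0.23 higher in the duodenum than in the jejunum (adjusted p = 0.00136), while Cdx2 differed there by -0.10 ± 0.20 (adjusted p = 0.998). Pdx1 was thus highest in the duodenum of these 3 segments; whether the 2 factors differ in this respect was not tested.

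Factors known from both epithelia were not called. Gata4 read 1.86, 1.86 and 1.98 and 2.71, 2.43 and 2.65 (-0.70 ± 0.29), Gata6 2.51, 2.13 and 2.45 and 2.24, 2.09 and 2.0 (0.13 ± 0.39), and Klf4 4.33, 4.0 and 4.43 and 3.79, 3.83 and 3.55 (0.47 ± 0.29). Others not called were Meis2, Hnf4a (-0.70 ± 0.33), Foxa1 (1.06 ± 0.45), Foxq1 (0.18 ± 0.34), Sox21 (0.33 ± 0.28), Onecut2 (-0.12 ± 0.43), Osr2 (-0.77 ± 0.40), Esrrb (0.48 ± 0.27) and Hes1 (-1.12 ± 0.59).

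Nuclear receptors were lower in the stomach for 6 of 14 and higher for 1. The oxysterol receptor Nr1h3 (9.69-fold), the bile acid receptor Nr1h4 (4.91-fold) and the xenobiotic receptor Nr1i2 (2.86-fold) were lower; without duodenum 1 the number lower was 3, and 0 were higher. Of 14 hedgehog and BMP genes 3 were higher and 1 lower, against 12.4% and 10.3% of all genes. The number higher ran from 0 to 3 when single samples were left out, and was 0 under normexp and with scan day as the block. Bmp4, among those higher, passed the filter on dim probes only through the stomach samples. The epithelial ligand Ihh was 2.12-fold lower in the stomach (adjusted p = 0.0172; 0.0774 without stomach 2, 0.135 without duodenum 1, 0.0953 with scan day as the block and 0.124 after quantile normalization), while Shh (0.92 ± 0.41) and the receptor Ptch1 (0.59 ± 0.30) were not called.

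Goblet cell genes were lower in the stomach for 5 of 10 and higher for 1 (median -1.66). Tff3, the intestinal trefoil peptide, read -2.16, -2.52 and -2.34 against 6.22, 6.37 and 5.91, 370.2-fold (224-fold with normexp, 238-fold over all its probes) lower (adjusted p = 3.19e-11), opposite to Tff1. The membrane mucin Muc13 was 151-fold (47.7-fold with normexp) lower and the lectin Zg16 73.9-fold lower. The secreted goblet mucin Muc2 was not called (-1.56, -1.01 and -1.42 against -0.69, -1.13 and -0.55; -0.61 ± 0.31), nor was the secretory chaperone Agr2 (0.11 ± 0.31), which was high in both segments and saturated in stomach 3.

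Paneth and antimicrobial genes were lower in the stomach for 6 of 12 and higher for 0 (median -2.32). Dmbt1, a scavenger glycoprotein of mucosal defence, read -3.27, -4.01 and -3.43 against 6.83, 6.78 and 5.94, 1107-fold (404-fold with normexp, 99.8-fold over all its probes) lower (-10.11 ± 0.33, adjusted p = 4.56e-12). The bactericidal lectins Reg3b (186-fold) and Reg3g (112-fold, 56.5-fold with normexp) were lower in the stomach. For these 3 genes the duodenum was also above the jejunum, by 1.60, 2.27 and 1.83. The defensin Defa24 was 93.2-fold (31.6-fold with normexp) lower, 161-fold without duodenum 1 and 49.4-fold without duodenum 2, while Reg3a (0.39 ± 0.29) and Lcn2 (-0.21 ± 0.43) were not called.

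Tight junction and adhesion genes included different claudins on either side. Cldn18, the gastric claudin, read 2.90, 2.69 and 3.06 against -2.32, -2.04 and -2.09, 32.03-fold higher in the stomach, and was the 1 of 19 genes that was higher. The intestinal claudins Cldn7 (23.7-fold), Cldn4 (14.1-fold, 5.54-fold over all its probes) and Cldn3 (10.3-fold) were lower, among 11 lower genes in all (median -1.11). Cdh17, liver-intestine cadherin, was 374-fold (240.5-fold with normexp, 96.9-fold over all its probes) lower, with levels of -2.85, -3.33 and -2.45 against 5.66, 5.96 and 5.42. The scaffold Tjp1 (-0.15 ± 0.29) and Cldn1 (-0.23 ± 0.64) were not called.

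Detoxification genes were lower in the stomach for 17 of 35 and higher for 3 (median -1.06). Gsta2 read -1.91, -3.61 and -2.70 against 7.45, 7.11 and 6.44, 864-fold (366-fold with normexp, 415-fold over all its probes) lower, in contrast to its relative Gsta1; near-identical members of this family may share hybridisation. The alcohol dehydrogenase Adh1c was 294-fold lower in the stomach, opposite to Adh7. It was 2.29 (log2) higher in duodenum than jejunum, where Adh7 was also higher in the duodenum. The cytochrome Cyp4f1 (56.3-fold), the glucuronosyltransferase Ugt2b7 (11.9-fold) and the efflux pump Abcg2 (31.6-fold, 7.04-fold with normexp) were also lower. Gstm1 (0.21 ± 0.29), Nqo1 (-0.19 ± 0.38) and Aldh1a1 (0.08 ± 0.34) were not called.

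Mitochondrial genes were lower in the stomach where called, for 11 of 20 in fatty acid oxidation and 15 of 31 in oxidative phosphorylation, with 1 higher in each. The carnitine carrier Slc25a20 (4.75-fold), the thiolase Acaa2 (4.14-fold) and the ATP synthase subunit Atp5f1a (9.11-fold) led. The list medians were -0.91 and -0.62. Scaling mattered for the second group: 9 were lower under normexp and 8 were higher under quantile normalization.

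Proliferation genes were lower in the stomach for 8 of 24 and higher for 0 (median -0.97), a count that was 17 without duodenum 3, between 3 and 5 without any other single sample and 3 with scan day as the block. Mean levels over the list were -0.32, -0.46 and -0.37 against 0.85, 1.15 and 0.48. The mitotic cyclin Ccnb1 (8.14-fold, 4.94-fold over all its probes) and the kinases Aurka (5.21-fold, 3.44-fold with normexp) and Aurkb (5.69-fold, 3.61-fold with normexp) were lower, whereas Top2a (-0.63 ± 0.39) and Pcna (-0.59 ± 0.33) were not called. Of 12 crypt stem genes 1 was lower and 0 were higher, and the crypt stem cell receptor Lgr5 (0.61, 1.18 and 0.35 against 0.54, -0.26 and 0.83; 0.33 ± 0.31) was not called.

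**Figure D5:**
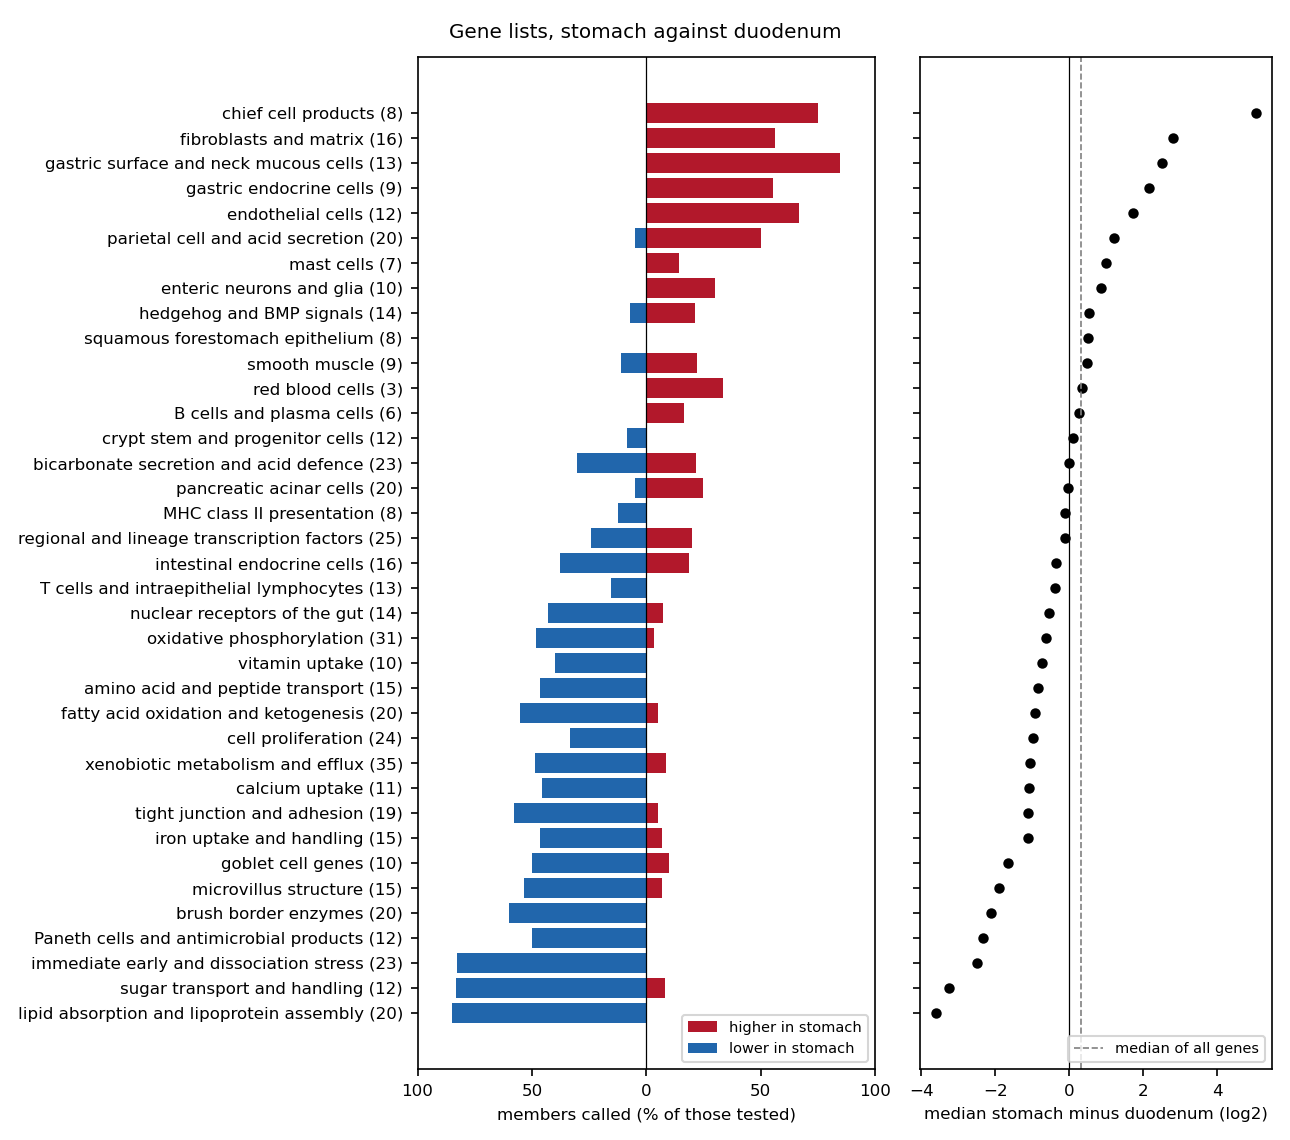
For each of 37 gene lists, the percentage of tested members (number in brackets) called higher or lower in the stomach (left, bars) and the median difference, stomach minus duodenum, on the log2 scale (right, points; the dashed line is the median of all genes). Chief, fibroblast and mucous lists lie at the higher end, and lipid, sugar and immediate early lists at the lower end.

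Genes best known from the pancreas were among the highest in the stomach: the lipase cofactor Clps read 6.28, 5.74 and 5.81 against -4.51, -3.37 and -3.87, 901-fold (317-fold with normexp) higher (597-fold without duodenum 1), and the disulphide isomerase Pdia2 was 341-fold (205-fold with normexp, 589-fold with quantile normalization) higher. The phospholipase Pla2g1b, saturated in the stomach, had a bound of at least 113-fold. Of 20 acinar genes 5 were higher and 1 lower (median -0.03), against 12.4% and 10.3% of all genes. Where all 6 samples had to be well above background, 3 acinar genes were called higher and 2 lower. Besides Clps and Pdia2, the elastase Cela3b (10.8-fold, 6.26-fold with normexp), the zymogen granule protein Gp2 (4.58-fold, 1.91-fold with normexp) and the chymotrypsinogen Ctrb1 (2.49-fold) were higher. The trypsinogen Prss1 (2.49-fold) was lower. Ctrb1 and Prss1 were not called without stomach 3, without duodenum 1 or with scan day as the block, nor Prss1 without stomach 1 or duodenum 2. Defining acinar enzymes such as Cela2a (0.29 ± 0.41), Pnlip (-0.02 ± 0.37) and Cpa1 (0.81 ± 0.63) were not called. Amy2a3, pancreatic amylase, was not called either (-1.03 ± 0.66), although its duodenal level was 4.25 above the jejunum.

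Other genes at the top were varied in role. Prss23, a serine protease, was 95.3-fold (47.1-fold over all its probes) higher, Npw, the neuropeptide W precursor, 68.7-fold, Glul, glutamine synthetase, 49.9-fold (19.8-fold with normexp, 8.54-fold over all its probes), Slc5a5, the sodium-iodide symporter, 48.5-fold and Fabp3, a fatty acid binding protein known from heart, 36.3-fold. Slc5a5 read 5.14, 4.65 and 5.19 in the stomach and -0.59, -0.28 and -0.98 in the duodenum. The pseudogene Tpt1-ps2 was 47.4-fold (26.8-fold with normexp) higher; its probe may also see the parent gene. Bounds were at least 18.3-fold (5.42-fold with normexp) for the lysophosphatidic acid receptor Lpar3, at least 16.8-fold (4.95-fold with normexp) for Arhgap22 and at least 13.3-fold (4.01-fold with normexp) for the potassium channel Kcnq3.

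At the other end, Casp1, the inflammatory caspase, read -3.53, -3.62 and -3.38 against 4.91, 5.19 and 4.61, 329-fold (161-fold with normexp) lower in the stomach (-8.36 ± 0.21, adjusted p = 2.32e-13). Hnmt, which inactivates histamine, was 324-fold (77.03-fold with normexp) lower, with levels of -5.0, -5.07 and -4.80 against 3.47, 3.55 and 3.09. With the diamine oxidase Aoc1 above, both histamine-degrading enzymes were lower in the stomach, where the histamine-forming Hdc was higher. The urea cycle enzyme Otc was 195-fold (53.9-fold with normexp) lower and the secreted protein Prap1 274-fold lower. Bounds of lower genes were at least 9.02-fold (2.68-fold with normexp) for the kinase Bmp2k (not called without duodenum 1), at least 5.57-fold (2.22-fold with normexp) for the gasdermin Gsdmc (not called without stomach 3 or with scan day as the block) and at least 3.60-fold (2.18-fold with normexp) for the chemokine Xcl1, which 2 of 3 duodenal samples measured.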

How the data were processed

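RNA from mucosal cells of 5 gut segments, with 3 isolations each, was hybridised to 2-channel Agilent rat arrays. The deposited files hold scanner intensity per spot; per the file headers the processed signal was background-subtracted and dye-normalized by Feature Extraction 8.5.1.1 (stomach, 10 µm pixels) or 9.5.1.1 (duodenum and jejunum, 5 µm); ileum and colon, which enter the filter and the fit, also used versions 9.5.3.1 and 10.1.1.1. The value table the authors deposited equals that processed intensity within 0.02 (log2) for all 43628 spots. The channel labelled with each sample was used, on a log2 scale minus its 75th percentile. Stomach and duodenal samples never shared an array, and each duodenal sample shared one with a jejunal sample.

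Of 41012 distinct probes outside control spots, 38846 passed the filter, which asked that all 3 samples of some segment be well above background. They stood for 33530 genes, each by its brightest probe. Probes were named by accession (11093), current symbol (5578) or older symbol (3736) of the RefSeq table; 20605 kept the file's name. limma 3.58.1 in R 4.3.3 fitted segment and dye over all 15 samples, treating the slide as random (within-slide correlation 0.361; 9 residual degrees of freedom), with an intensity trend. Tests were two-sided, with Benjamini-Hochberg adjustment over all genes and a threshold of 0.05. The fit was tested on simulated data before use. The number of arrays limits the precision.

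Members and gene lists were chosen with earlier results of these data known. The rule for named genes took, among called genes with an established symbol and no overlap between the 2 groups, the 15 largest differences each way measured in all 6 samples, the 6 largest bounds each way, the 6 markers, up to 4 called members of each list, and all transcription factor, iron and bicarbonate genes. A few members that the rule covers are not reported here. The following were named outside that rule, after their values were seen: Abcg8, Adh7, Agr2, Alas2, Aldh1a1, Amy2a3, Anpep, Calb1, Capn8, Car2, Cckbr, Cd36, Cd3e, Cd8a, Cdh1, Cela2a, Chia, Chrm3, Ckmt1, Cldn1, Cldn3, Clic6, Cobl, Col1a1, Cpa1, Ctrb1, Dgat2, Epcam, Eps8, Espn, Fabp2, Fosb, Gast, Gcg, Gkn2, Gsta1, Gstm1, Hrh2, Hspa1b, Hspb1, Ier3, Isl1, Kcne2, Lcn2, Lct, Lgr5, Lipf, Muc2, Muc6, Nkx2-2, Nqo1, Pck1, Pcna, Pecam1, Pgc, Pnlip, Prss1, Ptch1, Reg3a, Sar1b, Shh, Slc18a2, Slc2a1, Slc2a2, Slc36a1, Slc38a2, Slc4a1, Slc4a2, Slc5a1, Slc7a5, Sult1c2, Tff1, Tff2, Tjp1, Tmprss15, Top2a, Treh, Trpv5, Ugt2b7, Vdr, Vim and Vsig1.

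Alternatives covered background correction (normexp, offset 50), scaling, the value table, dim-probe filters, spots marked as outliers, dye, slide or scan day as block, samples in the fit, replicate number, trend, probe averaging and leaving out each sample.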

Additional observations from a re-analysis of the deposited data

How the results depend on the processing

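Of 166 called genes under the naming rule, 140 kept their direction and call in every alternative that gave them a value. All 21 gave a value for 113 of them, and 19 or 20 for the other 27. Genes with 20 had no value where all 6 samples had to be well above background. Those with 19 also had none when the stomach flags were left out of the filter. They had passed the main filter only through the stomach samples, whose flags use the lower multiplier, so these settings did not test them. Direction turned only under normexp (Bmp4 -0.19, Plvap -0.04 and Fcer1a -0.11, log2). Among other list members, Dgat2 turned to 0.23 under normexp, and Bco1, not called in the main setting, was called at -1.33 over all its probes; the cause was not tested. Beside the 4160 genes higher and 3440 lower in the stomach, 2047 were higher and 2107 lower with scan day as the block, where each day adds to the error, and 2676 were higher where all 6 samples had to be well above background, which tests fewer genes. Leaving out single samples gave between 2057 and 5331 higher and between 2007 and 4064 lower; the lowest counts came without duodenum replicate 1, and without stomach replicate 3 the higher count was 2134. Every other setting kept both counts within 1.5 times. With the replicate block, 3545 were higher and 3114 lower; same-numbered samples correlated at 0.08, -0.42 and -0.23 in their deviations, so the numbers were not taken as pairs. The dye term gave 0 genes by limma, and 635 at an unadjusted p under 0.05. For 1050 of the genes tested, called or not, no probe was well above background in any duodenal sample. Where such a gene was higher in the stomach, its fold is a bound.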
